A study of Sus scrofa with 21 samples.

Results

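The stretch of pig endometrium between the places where conceptuses are attached, called the inter-site, was compared between day 24 and day 18 after insemination. The comparison used 6 of the 21 one-colour arrays of the series: the 3 arrays labelled as inter-site of day 24 and the 3 labelled as inter-site of day 18. All sows were Large White, were pregnant at sampling and, per the labels, were different animals on the 2 days, with 3 sows a day. The other groups, used here only for reference, were the attachment sites of the same days (3 arrays each), both site types on day 13 and the endometrium of non-pregnant sows given inactivated sperm and killed on day 13. The labels give neither the age or parity of the sows nor which libraries share a sow. Each library was made from total RNA of whole endometrium, so a lower signal from fewer cells of a type and from less RNA per cell cannot be told apart. The p-values measure only the spread between these libraries.

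In the pig the conceptus does not invade the uterus. Its trophoblast adheres to the luminal epithelium, and the placenta stays epitheliochorial, which leaves the embryo dependent on histotroph, the proteins, ions and nutrients that the uterine glands secrete. The days compared here follow the first adhesion of the conceptus, a period in which progesterone, conceptus estrogen and conceptus interferons act on the endometrium. At the inter-site the epithelium faces no embryo proper, although the elongated chorion can lie along it.

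Levels are given as log2 signal relative to the 75th percentile of the array, so that a level of 0 is that percentile, and a difference of 1 is a doubling. Differences are day 24 minus day 18. The tissue label was checked against epithelial and stromal markers. KRT8 and EPCAM, an epithelial keratin and an epithelial adhesion molecule, and DCN, a matrix proteoglycan of stromal fibroblasts, were well above background on 6 of 6 arrays. Their mean levels over the 21 arrays lay at percentiles 93.5, 92.3 and 98.4 of the named genes tested.

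Libraries of 1 group did not all resemble each other. Day 24 replicate 3 stood apart from its group. DKK1, an antagonist of WNT ligands, was at 5.24, 4.73 and -6.13 in the day 24 replicates 1 to 3, against 5.07, 4.22 and 5.57 in the day 18 replicates. In the non-pregnant libraries it had -4.63, -5.37 and -4.63. SULT1E1, the estrogen sulfotransferase, had 2.11, 1.13 and -7.30 on day 24, 0.55, -0.69 and -0.32 on day 18, and -7.30, -6.70 and -7.42 in the non-pregnant libraries. The progesterone receptor gene PGR had 1.25, 1.38 and 3.03 on day 24 and between 1.31 and 1.38 on day 18, against 3.43, 3.01 and 3.37 in the non-pregnant libraries. In each of these genes day 24 replicate 3 lay with the non-pregnant libraries and not with the replicates of its own label. Over all probes its correlation was highest with non-pregnant replicate 3, at 0.988, followed by the pregnant day 13 inter-site replicate 1, at 0.970. It was 0.950 and 0.954 with non-pregnant replicates 1 and 2, and 0.942 with each of the other day 24 libraries. It was more than 2 log2 units away from both of its group mates at 748 probes, against 303 for replicate 1 and 429 for replicate 2. Of 123 probes with an on-off pattern across the series, it matched non-pregnant replicate 3 at 91.1% and day 13 inter-site replicate 1 at 86.2%, its group mates at 53.7% and 43.1%, and non-pregnant replicates 1 and 2 at 38.2% and 39.8%. At these probes its likeness was thus to those 2 libraries and not to the non-pregnant group as a whole. Matches of that size also occurred between different sows: day 24 replicate 1 matched day 18 replicates 1 and 2 at 91.9% and 92.7%. Day 18 replicates 1 and 2 matched each other at 97.6% of those probes, and the labels do not say whether they share a sow. The library is called day 24 replicate 3 throughout, by the label of its scanner file. In the authors' deposited table the columns of day 24 inter-site replicates 2 and 3 followed each other's scanner files. Results are given with and without this library.

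**Figure D1:**
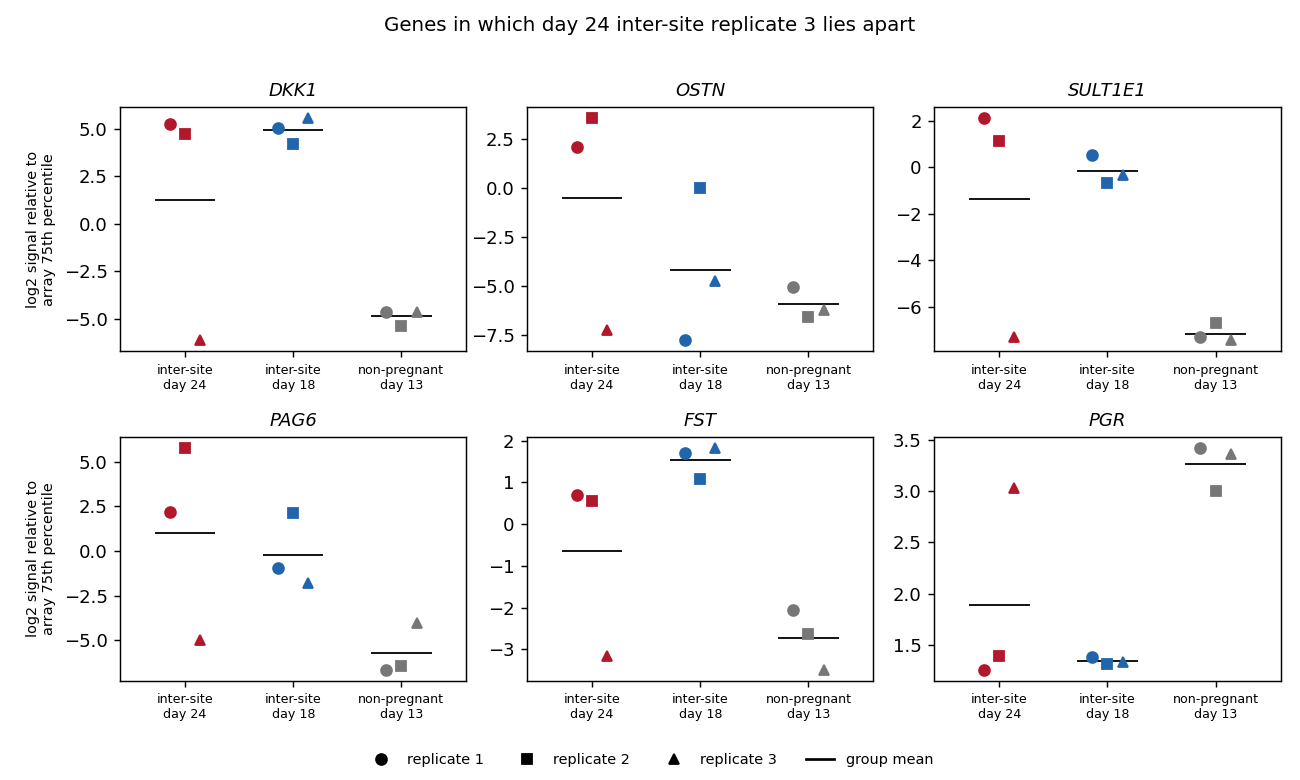
Levels of 6 genes in each array (vertical axis, log2 level above or below that array's percentile 75) in day 24 inter-sites, day 18 inter-sites and non-pregnant endometrium, with 1 marker shape per replicate number and a bar at the group mean. Day 24 replicate 3 (red triangle) lies at the level of the non-pregnant arrays in DKK1 and SULT1E1, at -6.13 and -7.30.

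Of 30091 probes tested, 43 (0.143%) passed an adjusted p of 0.05 between day 24 and day 18, 29 higher (0.0964%) and 14 lower (0.0465%) on day 24. At an unadjusted p under 0.05 there were 4237 probes, 2775 higher and 1462 lower. Probes whose 3 day 24 values all lay above the 3 day 18 values made up 11.5% of those tested, and probes with all 3 below made up 6.49%. The differences of the called probes ran between 0.99 and 5.95 for those that rose and between -1.42 and -3.44 for those that fell. Of the 43, 8 had no day 18 array well above background and 1 had no such day 24 array, so the sizes of their differences are not known. Without day 24 replicate 3, 70 probes were called (0.233%), 62 higher (0.206%) and 8 lower (0.0266%), and 27 of them were among the 43. Leaving out any 1 of the other libraries gave between 6 and 25 calls, with 6 without day 18 replicate 2 and 6 without day 18 replicate 3. Replicates 1 of both days were hybridised on 1 slide and replicates 2 of both days on another. With the slide as a block only 1 of the 43 calls, MMP1, was kept. Within each of these slides, 43 of the 43 called probes had the sign of the pooled difference. Of all probes, 68.8% and 74.2% did. These arrays were also among those that chose the calls. The days did not overlap in any called probe, so the sign within a slide could not differ and is no support.

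There were 10 called probes with a gene symbol, and they stood for 8 genes, 0.396% of the 2018 named genes tested. MMP1, HMOX1, MMP20, PMEPA1, SCD, PGLYRP2 and CYCS rose, and PDK4 fell. The remaining 33 called probes have no gene symbol in the tables used here. The largest rise among them, of probe A_72_P506790, was 5.95 (SE 0.77, adjusted p 0.00573). Only 1 of its 3 day 18 arrays was well above background, so the size of that rise is uncertain. The largest fall, of probe A_72_P122421, was -3.44 (SE 0.45, adjusted p 0.00573).

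MMP1 encodes interstitial collagenase, which cuts fibrillar collagen. Its levels were -2.88, -3.29 and -2.88 in the day 24 replicates, against -7.95, -7.45 and -7.44 in the day 18 replicates. The 3 day 24 arrays were well above background and lay close to each other, whereas no day 18 array was well above background. MMP1 was therefore at least 5.43-fold higher on day 24 (adjusted p 0.00573), with differences of 5.07 and 4.16 within the 2 slides. The day 13 inter-sites were as low, at -7.59, -7.67 and -7.78. It was called with and without day 24 replicate 3 (adjusted p 0.0104 without it). MMP20, known as the enamel metalloproteinase, had -4.17, -4.79 and -6.47 on day 24, against -7.95, -7.51 and -7.56 on day 18 by its called probe (adjusted p 0.0486). That probe was well above background on 2 of the 3 day 24 arrays and on 0 of the day 18 arrays, so that the size of its rise is not known.

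Other genes of the matrix list, which holds collagenases, their inhibitors and matrix proteins, had smaller differences. Of its 20 tested members, 1 was called, 16 were above 0, as were 63.0% of all named genes, and 6 had groups that did not overlap in the direction of higher day 24 values, as did 17.7% of all named genes, with a median of 0.69 against 0.17 over all named genes (0.48 against 0.19 without day 24 replicate 3). SERPINE2, a secreted protease inhibitor, had 2.48, 2.69 and 1.22 on day 24, against 0.02, -0.07 and 0.21 on day 18. The groups did not overlap, and replicate 3 was the lowest on day 24. The difference of 2.08 (SE 0.48) missed the threshold (adjusted p 0.0792), and without that replicate it was 2.53 and passed (adjusted p 0.0422). TIMP1, an inhibitor of matrix metalloproteinases, and HPSE, which cleaves heparan sulfate, were named after their values were seen. TIMP1 had 6.09, 6.77 and 6.04 on day 24, against 4.83, 5.26 and 5.18 on day 18 (difference 1.21, SE 0.29, adjusted p 0.0832). HPSE was well above background on 3 day 24 arrays and 0 day 18 arrays and was at least 1.56-fold higher on day 24 (adjusted p 0.147). OPTC, a small matrix proteoglycan, went the other way, with -3.36, -6.64 and -5.46 on day 24 and -2.50, -2.62 and -2.66 on day 18. It was well above background on only 1 day 24 array and did not pass (adjusted p 0.338).

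HMOX1 encodes heme oxygenase, the enzyme that breaks heme down to iron, carbon monoxide and biliverdin. Its called probe had -0.81, -0.43 and -1.06 on day 24, against -3.25, -3.49 and -3.32 on day 18. The 3 arrays of each day lay close together and the days far apart. The rise was 2.59 (SE 0.45, adjusted p 0.0391), and the other 2 probes differed by 2.25 and 2.36 without passing. Among 25 tested genes of the vascular list, which HMOX1 belongs to, no other was called, and the list's median was 0.12 (0.31 without day 24 replicate 3).

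PDK4 and SCD both act in the choice of fuel. PDK4, the kinase that shuts pyruvate dehydrogenase and so spares glucose, fell. The called probe with the larger difference had 1.01, 1.53 and -0.87 on day 24, against 3.64, 2.68 and 2.95 on day 18. Its fall was -2.54 (SE 0.43, adjusted p 0.0391), and without the lowest library, day 24 replicate 3, it was -1.82 (adjusted p 0.017). All 9 probes of PDK4 were lower on day 24, between -1.91 and -2.54, and 2 passed. SCD, which makes monounsaturated fatty acids, rose. Its called probe had -2.97, -3.53 and -3.49 on day 24, against -5.26, -5.18 and -5.21 on day 18, where 1 of the 3 arrays was well above background. The 9 probes of SCD were higher by 1.48 to 1.89, and 1 of them passed (adjusted p 0.0486), which it no longer did without day 24 replicate 3 (adjusted p 0.0607).

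CYCS encodes cytochrome c, the electron carrier of the respiratory chain. The 12 probes of the gene were all higher on day 24 but disagreed in size, between 0.31 and 1.49. The called one with the larger difference had 3.21, 3.35 and 2.59 on day 24, against 1.92, 1.55 and 1.55 on day 18 (difference 1.38, SE 0.26, adjusted p 0.0486). The brightest probe had 3.18, 3.68 and 2.31 on day 24 and 2.43, 2.33 and 3.50 on day 18, and its groups overlapped (adjusted p 0.81). Apart from SCD and PDK4, 0 of the 28 tested genes of the lipid and amino acid list passed.

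PMEPA1, a membrane protein that restrains TGF-beta signalling, had 3.90, 3.38 and 3.42 on day 24, against 1.61, 1.81 and 1.58 on day 18. The days lay well apart, and the rise was 1.90 (SE 0.35, adjusted p 0.0472). PGLYRP2, an amidase that cleaves bacterial peptidoglycan, had 1.98, 2.40 and 1.84 on day 24, against 0.49, -0.36 and 0.81 on day 18. Its rise was 1.76 (SE 0.34, adjusted p 0.0486). Without day 24 replicate 3 both had differences at least as large but missed the threshold (adjusted p 0.0544 for each).

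**Figure D2:**
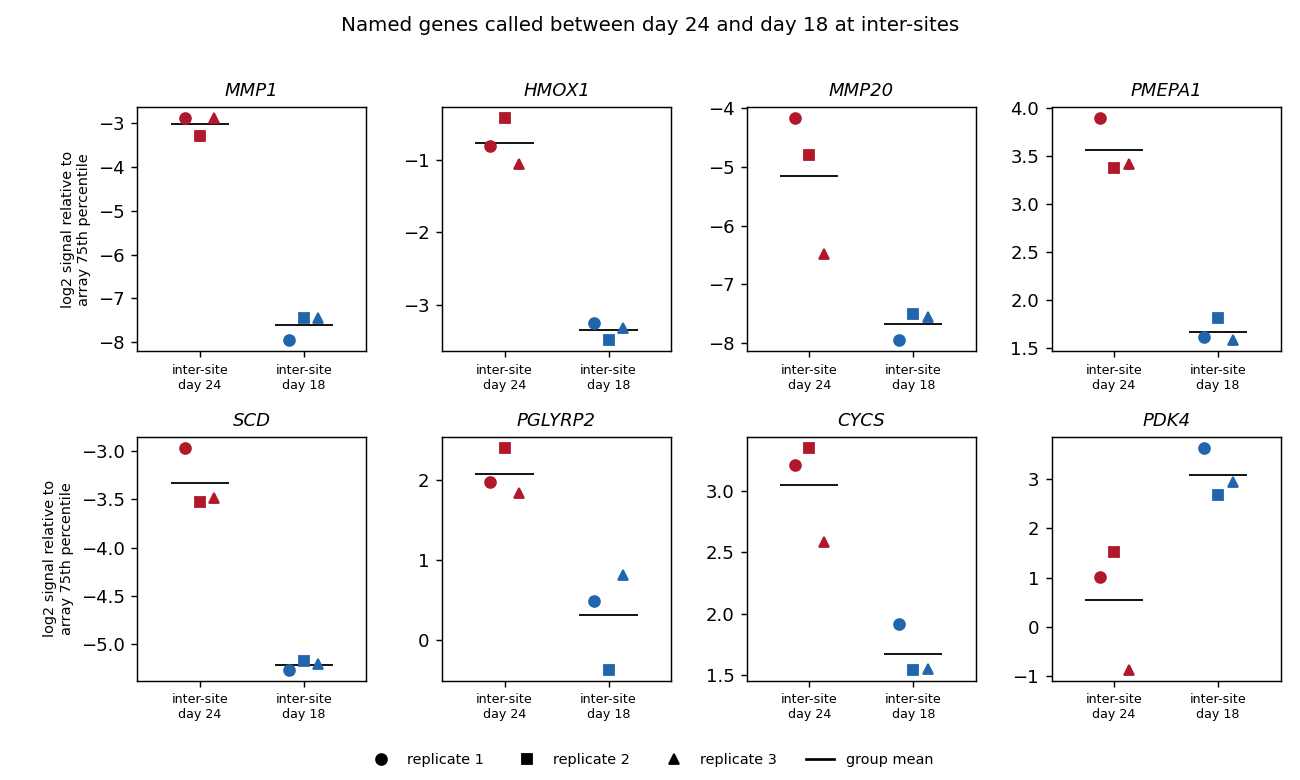
The 8 called named genes, each by its called probe with the largest difference, in the 3 day 24 and the 3 day 18 inter-site arrays (vertical axis, log2 level above or below that array's percentile 75, on a scale of its own in each panel), with 1 marker shape per replicate number and a bar at the group mean. In none of the 8 do the days overlap. Day 24 replicate 3 is the lowest day 24 array in MMP20, at -6.47, in PDK4, at -0.87, and also in HMOX1, PGLYRP2 and CYCS.

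There were 9 further named genes that passed only in the fit without day 24 replicate 3: SFN, CDSN, AQP8, LGALS4, SCGN, SERPINE2, ARF2, ATP6V1A and PSME3, all higher on day 24. SFN, an epithelial 14-3-3 protein, had 3.95, 4.79 and -0.14 on day 24, against 0.85, 0.34 and -0.62 on day 18. The first 2 day 24 arrays lay far above day 18 and the third among its values. Its difference was 4.18 without that library (adjusted p 0.0409), against 2.68 with it (adjusted p 0.24). AQP8, a water channel, showed the same kind of split, with 1.94, -0.11 and -2.85 on day 24, against -3.40, -2.04 and -3.13 on day 18 (3.77 without replicate 3, adjusted p 0.0301). CDSN, an adhesive protein of cornified epithelia, and LGALS4, an epithelial galectin, were called through a probe other than their brightest. SCGN, a calcium-binding protein of secretory cells, had -4.66, -5.01 and -6.83 on day 24, against -6.87, -7.61 and -7.62 on day 18, where no array was well above background. The small GTPase ARF2, the proton pump subunit ATP6V1A and the proteasome activator PSME3 also passed, with adjusted p of 0.0478, 0.0409 and 0.0422 without replicate 3 against 0.0694, 0.111 and 0.069 with it.

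Several named genes with differences as large as these did not pass, and had a wide spread within a day. DMBT1, a mucosal glycoprotein that binds bacteria, had 2.08, 2.14 and 7.10 on day 24, against -0.10, -0.14 and -3.42 on day 18. The groups did not overlap, and replicate 3 was the farthest array on both days (difference 4.99, SE 2.25, adjusted p 0.332; 3.32 without day 24 replicate 3). SERPINA3-2, one of several near-identical pig antichymotrypsin genes, whose signal may include its copies, had 2.29, 4.86 and 1.64 on day 24, against -2.34, -1.02 and -1.92 on day 18 (adjusted p 0.102). S100G, the calcium carrier calbindin-D9k, had 2.36, 2.06 and 5.28 on day 24, against -0.05, -1.60 and -2.63 on day 18 (adjusted p 0.0884). UPK1B, a urothelial tetraspanin, and CHI3L1, a secreted chitinase-like protein, differed by 4.36 and 4.17 with groups that did not overlap (adjusted p 0.0842 and 0.104). CELA1, an elastase, rested on 1 library: it had -4.57, -4.88 and 2.91 on day 24, against -5.83, -7.10 and -6.17 on day 18, where no array was well above background. With that library included, its mean was at least 9.71-fold higher on day 24 (adjusted p 0.234). Without day 24 replicate 3 the fitted difference was 1.64, a size that is not known because the day 18 signal was not above background. Over the named genes, 17.7% had 3 day 24 values above all 3 day 18 values and 4.71% had 3 below.

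On the lower side, CBR2, a carbonyl reductase, had -1.13, -2.07 and -5.88 on day 24, against 1.12, 0.84 and 2.94 on day 18 (difference -4.66, SE 1.72, adjusted p 0.231). SST, the peptide hormone somatostatin, had -0.48, -1.79 and -7.67 on day 24, against 0.81, 0.14 and 1.19 on day 18 (difference -4.02, adjusted p 0.341; -1.85 without day 24 replicate 3). FXYD2, a regulator of the sodium pump, had 3.09, 0.20 and -1.18 on day 24, against 4.46, 3.14 and 5.86 on day 18 (adjusted p 0.258). Day 24 replicate 3 was the lowest array in each of these genes. Evener differences were seen in GATM, the first enzyme of creatine synthesis, with levels between -0.86 and -0.48 on day 24, against 1.12 to 1.40 on day 18. Its difference of -1.92 (SE 0.51) had an adjusted p of 0.114. IL1A, a proinflammatory cytokine, had -3.20, -3.31 and -2.31 on day 24, against -0.76, -1.56 and -0.91 on day 18 (difference -1.86, SE 0.59, adjusted p 0.169). NR0B1, an orphan receptor that represses steroid synthesis genes, CA11, a carbonic anhydrase-related protein, LIPC, hepatic lipase, FST, which binds activin, and DIRAS3, a small GTPase, differed by -2.16, -1.86, -1.80, -2.17 and -1.77, none of them past the threshold. Without day 24 replicate 3 these were -1.88, -1.47, -1.84, -0.91 and -1.09, so that FST and DIRAS3 depended more on that library.

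Among genes of uterine secretion, 0 of 31 tested members of the histotroph list passed, 23 were above 0 (63.0% of all named genes were) and 11 had days that did not overlap upwards (17.7% of all), with a median of 0.90 (0.92 without day 24 replicate 3). SPP1, osteopontin, the secreted integrin ligand of the pig uterine epithelium, was named after its values were seen. It had 6.69, 5.69 and 5.25 on day 24, against 3.47, 3.58 and 1.31 on day 18. All day 24 arrays lay above all day 18 arrays, by a mean of 3.09 (SE 0.72, adjusted p 0.0811). SLPI, a secreted protease inhibitor also named afterwards, had 8.86, 9.87 and 9.24 on day 24, against 7.22, 8.64 and 4.82 on day 18 (adjusted p 0.255). ACP5, uteroferrin, and RBP4, the retinol carrier, both gland products named after their values were seen, were high on both days. ACP5 had 8.51, 9.26 and 6.34 on day 24, against 9.22, 9.36 and 8.88 on day 18. RBP4 had 8.13, 8.60 and 5.33 on day 24, against 8.43, 8.33 and 8.08 on day 18. Both were lowest in day 24 replicate 3, and without it RBP4 differed by 0.08. OSTN, a small secreted peptide, had 2.08, 3.57 and -7.24 on day 24, against -7.77, 0.01 and -4.77 on day 18.

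The ion, water and calcium list had 15 tested members with a median of 0.47 (0.31 without day 24 replicate 3). Of these 12 were above 0 (63.0% of all named genes were) and 0 passed. CFTR, the epithelial chloride channel, had -2.45, -3.54 and -1.30 on day 24, against -5.02, -4.41 and -5.54 on day 18. The days did not overlap, and the difference of 2.56 (SE 0.57) had an adjusted p of 0.0764. Of 22 nutrient transporters tested, 0 passed and 13 were above 0 (median 0.06, and 0.31 without day 24 replicate 3, where 15 were above 0). The glucose transporter SLC2A2 was above background in 1 of the 6 arrays, day 24 replicate 2, at -3.23, and the amino acid transporter SLC7A3 was likewise above it only there, at -2.43. FABP3, a fatty acid carrier, had 1.67, 1.91 and 1.54 on day 24, against 1.56, 0.06 and -0.92 on day 18 (adjusted p 0.369).

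Of 14 adhesion molecules and mucins tested, 0 passed and 11 were above 0, as were 63.0% of all named genes. The list's median was 0.74, and 0.62 without day 24 replicate 3. MUC20, a membrane mucin, had 0.32, 2.74 and 2.68 on day 24, against -1.19, -0.83 and -1.50 on day 18 (difference 3.08, SE 0.71, adjusted p 0.079). ITGB6, an epithelial integrin subunit, was well above background on 3 day 24 arrays and 0 day 18 arrays, and was at least 1.77-fold higher on day 24 (adjusted p 0.0863). VCAM1, a leukocyte adhesion molecule, had 4.52, 5.40 and 3.04 on day 24, against 2.62, 3.26 and 3.05 on day 18. The epithelial markers had a median of 0.41 (0.48 without that library) over 7 tested members; KRT8 differed by 1.09 and CDH1, E-cadherin, by 0.96, with days that did not overlap and adjusted p of 0.265 and 0.345.

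Immune genes lay on both sides. Of 31 tested interferon response genes, 26 were below 0, whereas 63.0% of all named genes were above 0. The days did not overlap downwards in 4 of the 31 (4.71% of all named genes) and upwards in 2 (17.7% of all). The list's median was -0.61, and -0.57 without day 24 replicate 3, and 0 passed. UBD, an interferon-induced ubiquitin-like protein, had -0.81, -0.75 and 0.59 on day 24, against 1.38, 2.05 and 2.40 on day 18, without overlap (difference -2.26, SE 0.52, adjusted p 0.0804). CXCL10, a chemokine induced by interferon, had 1.79, 0.70 and 1.69 on day 24, against 1.69, 5.48 and 4.31 on day 18, and GBP1, an interferon-induced GTPase, had 0.95, 1.38 and 2.11 against 1.80, 5.07 and 3.82. In CXCL10 and GBP1 day 18 replicate 1 was far below its 2 group mates, and the list's median was 0.15 within the slide of replicates 1 and -1.59 within the slide of replicates 2. The related GTPase GBP2 had 0.45, 0.06 and 0.75 on day 24, against 1.14, 3.51 and 2.61 on day 18 (adjusted p 0.148), and CXCL9, a further such chemokine, differed by -1.45 with days that overlapped.

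The list of antigen presentation had 20 of 22 tested members below 0 and none that passed (median -0.66, and -0.87 without day 24 replicate 3). Of all named genes 63.0% were above 0. The days did not overlap downwards in 4 of the 22 (4.71% of all named genes) and upwards in 1 (17.7% of all). SLA-DMB and SLA-DOB, class II chaperones, and TAP1, the peptide transporter of class I, differed by -1.06, -0.95 and -0.93 with days that overlapped. Of 14 tested markers of T and NK cells, 11 were below 0 and 0 passed. Their median was -0.77 (-1.07 without day 24 replicate 3). The days did not overlap downwards in 2 of the 14 and upwards in 0. GZMB, a protease of cytotoxic granules, had 1.29, 0.81 and 0.81 on day 24, against 2.15, 1.93 and 2.87 on day 18 (difference -1.34, SE 0.32, adjusted p 0.0826). CD8A and CD4, the T cell coreceptors, differed by -1.07 and -1.04, and their days overlapped. The summed signal of this list lay between 2.36 and 2.80 on day 24 and at 3.25 or above on day 18.

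Neutrophil-type genes pointed upwards. Of 7 tested markers, 6 were above 0 (63.0% of all named genes were), 3 had days that did not overlap upwards (17.7% of all) and 0 passed, with a median of 2.71 (2.67 without day 24 replicate 3). S100A8, a subunit of calprotectin, had 1.97, 0.09 and -1.66 on day 24, against -3.23, -3.43 and -4.07 on day 18. All day 24 arrays lay above all day 18 arrays, and the difference was 3.71 (SE 0.99, adjusted p 0.113). S100A12, a related calgranulin, had 2.03, 1.40 and -0.10 on day 24, against -1.38, -2.40 and -3.44 on day 18 (adjusted p 0.13), and S100A9, the partner of S100A8, differed by 3.04 (adjusted p 0.515). Epithelia also make these proteins. Among 41 cytokines and chemokines tested, 0 passed (median -0.04, and -0.24 without day 24 replicate 3). The neutrophil chemoattractants AMCF-II and CXCL8 had their highest values in day 24 replicate 3, at 0.10 and -0.69. Of 25 genes of complement and coagulation, 0 passed (median 0.19, and 0.33 without that library); CFB, a protease of the alternative pathway, had 3.73, 1.70 and 2.50 on day 24, against -0.21, -0.10 and -1.27 on day 18 (difference 3.17, SE 0.72, adjusted p 0.0785). Of 11 myeloid markers 8 were below 0 (median -0.16, and -0.49 without it), with CD180 at -1.28 and CD14, the endotoxin coreceptor, at -0.78.

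Of 18 tested genes of steroid action, 0 passed (median 0.24, and 0.34 without day 24 replicate 3). HSD11B1, which regenerates active glucocorticoid, had 4.36, 4.81 and 5.53 on day 24, against 3.06, 2.69 and 2.62 on day 18, whereas HSD11B2, which inactivates it, had -1.32, -1.41 and -2.12 against 0.54, -0.52 and -0.57. The days of neither gene overlapped, and the differences of 2.11 (SE 0.56) and -1.43 (SE 0.55) had adjusted p of 0.111 and 0.246. Of 11 genes of the prostaglandin list 0 passed (median 0.34, and 0.66 without that library). PTGES, a prostaglandin E synthase, had 3.36, 3.58 and 2.78 on day 24, against 1.66, 1.12 and 1.68 on day 18 (difference 1.75, SE 0.45, adjusted p 0.102). LPAR3, a lysophosphatidic acid receptor expressed by the pig endometrium, had -2.32, -5.33 and -1.68 on day 24, against -4.58, -5.54 and -6.60 on day 18, and its days overlapped (adjusted p 0.191). Of 29 growth factors, WNT and homeobox genes, 0 passed (median -0.05, and 0.03 without it). HBEGF and AREG, ligands of the EGF receptor, differed by 1.79 and 1.81 without overlap (adjusted p 0.173 and 0.343).

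All 12 tested cell cycle genes were above 0 (63.0% of all named genes were) and 0 passed. In 3 of the 12 the days did not overlap upwards (17.7% of all named genes). Their median was 1.12, and 0.66 without day 24 replicate 3. CCNB2, a mitotic cyclin, was above background on 3 day 24 arrays and on 0 day 18 arrays and was at least 4.97-fold higher on day 24 (adjusted p 0.13). CDK1, its kinase partner, had -2.20, -0.12 and 1.80 on day 24, against -2.92, -3.14 and -2.64 on day 18, and CDC20, an activator of the anaphase complex, had -5.23, -3.66 and -0.79 against -5.88, -6.13 and -5.18. Day 24 replicate 3 was the highest array in both. The 29 ribosomal protein genes had a median of 0.17 (0.01 without that library), and the 13 immediate early and heat shock genes one of -0.10 (-0.02 without it), with NR4A2 at -0.85 and the chaperones HSPH1 and HSPE1 at 0.65 and 0.64.

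Markers of other cells differed between libraries of the same day. Of the trophoblast list 6 members were tested and 3 did not pass the filter on dim probes. PAG6, one of many related pregnancy-associated glycoproteins of the pig trophoblast, had 2.17, 5.78 and -4.97 on day 24, against -0.98, 2.13 and -1.82 on day 18. GATA3 and TFAP2C, transcription factors of trophoblast and of epithelia, were highest in day 24 replicate 2 as well, at 3.12 and 1.62. The median of the 6 was 0.41 (0.59 without day 24 replicate 3). PPAG3, another such glycoprotein, was above background on 2 day 24 arrays and 1 day 18 array, with its highest value again in day 24 replicate 2. The 7 markers of embryonic blood and yolk sac had a median of -0.22, and of 0.69 without day 24 replicate 3. Among them TTR, a thyroid hormone carrier made by the yolk sac, had -6.70, -2.92 and -7.39 on day 24, against -2.30, -2.64 and -1.96 on day 18. The median level of the 7 smooth muscle markers was 3.74, 6.45 and 2.68 on day 24, against 3.43, 4.32 and 6.46 on day 18, so that 1 library of each day held more of these transcripts than the others, and the median difference was -0.30 with and 0.36 without day 24 replicate 3. The 4 endothelial markers had a median of -0.18 (-0.09 without day 24 replicate 3), with CDH5, VE-cadherin, at -0.55. THY1, in the stromal list, had 0.62, -0.91 and -3.21 on day 24, against -3.69, -3.25 and -3.95 on day 18 (adjusted p 0.173); the 3 stromal markers had a median of 0.10 (0.41 without that library). The 1 ciliated cell marker and the 1 B cell marker tested differed by 0.46 and -0.14, and by -0.07 and 0.06 without day 24 replicate 3. No adult blood marker was tested. The part of these cells in the results was not tested.

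**Figure D3:**
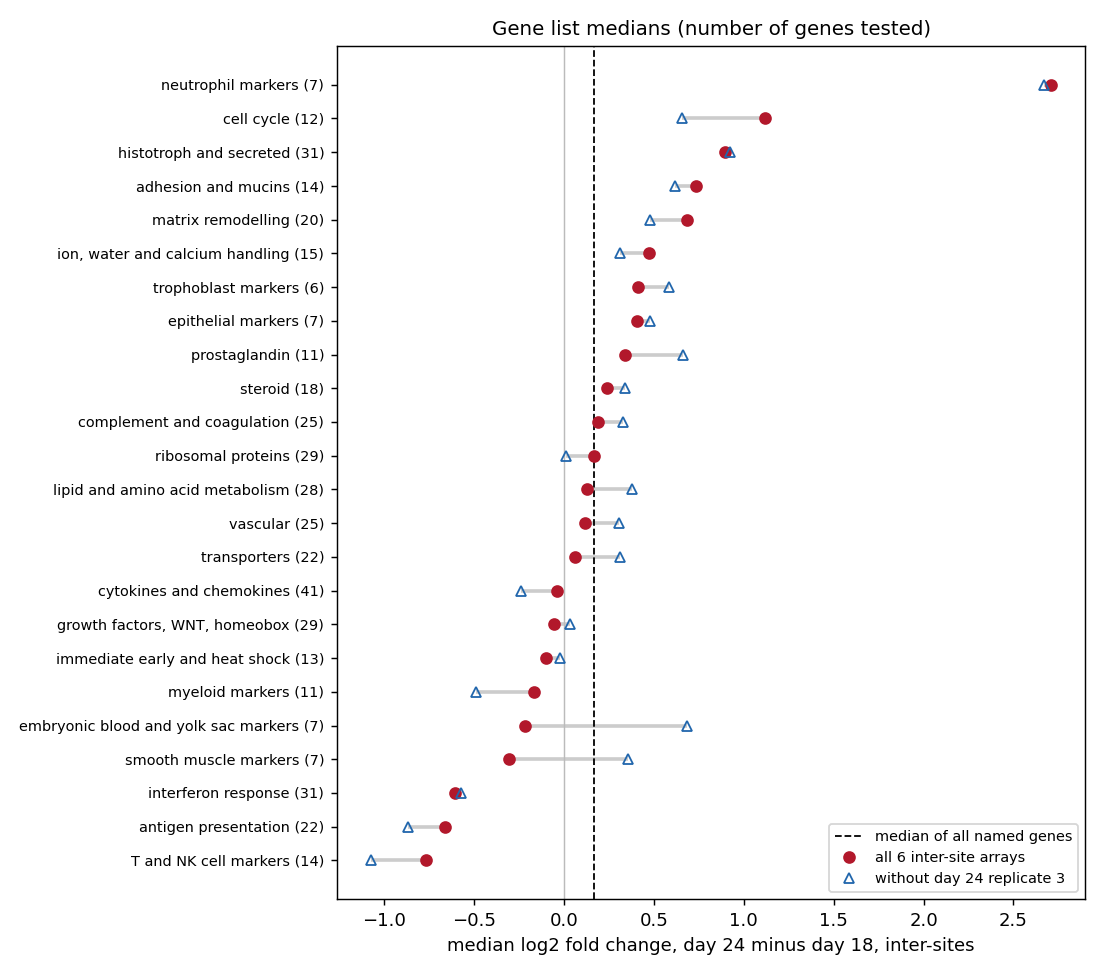
Median difference (horizontal axis, log2, day 24 minus day 18 at inter-sites) of each gene list with 5 or more tested genes, over all 6 arrays (filled circle) and without day 24 replicate 3 (open triangle). The dashed line is the median of all 2018 named genes, 0.17; the neutrophil markers lie at 2.71 and the T and NK cell markers at -0.77.

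The levels of the called probes were also set beside those of the earlier inter-sites. Both the day 24 and the day 18 values used here also chose the calls. The shares over all probes, which were not so chosen, are therefore no equal measure. Of the 29 probes that rose, 29 had a higher mean on day 24 than at the day 13 inter-sites, and in 24 day 18 was the lowest of the 3 days. Among all probes with a positive difference, 69.3% and 69.0% did so. Of the 14 that fell, 14 had day 18 as the highest of the 3 days and 14 had a lower mean on day 24 than on day 13, against 54.6% and 78.7% of all probes with a negative difference. PDK4, by the called probe given above, had 1.19, 1.92 and 1.96 at the day 13 inter-sites and -0.33, -0.17 and -0.24 in non-pregnant endometrium, so that day 18 was its highest group of these 4. PGLYRP2 had 1.24, 0.54 and 0.90 at the day 13 inter-sites and 1.99, 2.05 and 1.70 in non-pregnant endometrium, close to its day 24 values.

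The same days were then compared at the attachment sites, where 1698 of 30091 probes were called (5.64%), 1170 higher and 528 lower on day 24. Of the 43 probes called at inter-sites, 43 had a difference of the same sign there, as had 73.1% of all probes. Of the 43, 25 were also called at attachment sites, which is 58.1% of the 43 and 1.47% of the 1698. With 3 sows a day for both site types, the attachment sites are not a separate set of animals. HMOX1 differed at attachment sites by 4.52 (adjusted p 0.000165) and at inter-sites by 2.59 with the called probe, and SCD by 2.02 (adjusted p 0.00504) and 1.71 with the brightest. MMP1 differed by 3.41 at attachment sites (adjusted p 0.0052). PMEPA1, PGLYRP2 and PDK4 had no call there, with 1.03, 0.92 and -1.18.

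Whether the change differed between the site types was tested directly, as the inter-site difference minus the attachment-site difference, and 3 probes passed (0.00997%), with 964 at an unadjusted p under 0.05. Each had the smaller or opposite difference at inter-sites. CYP19A3, one of the near-identical pig aromatase genes, which make estrogen and whose signals may not be separable, was not above background in any of the 6 inter-site arrays. It had -8.88, -6.82 and -7.49 on day 24 and -7.97, -7.51 and -6.03 on day 18 at inter-sites. At attachment sites it had -3.70, -2.28 and -2.38 on day 24, against -7.94, -7.22 and -7.79 on day 18. The test of the difference between site types had an adjusted p of 0.0233, but with the inter-site values not above background its size is not known. IL6, an inflammatory cytokine, was called by 1 of its 3 probes. That probe had -3.61, -3.63 and -4.25 on day 24, against -5.26, -5.14 and -4.91 on day 18 at inter-sites, and 0.42, -0.10 and 1.11 on day 24, against -4.42, -5.06 and -4.49 on day 18 at attachment sites. The days did not overlap at either site type, and the difference was 1.27 at inter-sites and 5.13 at attachment sites (difference of differences -3.86, SE 0.56, adjusted p 0.0308). The brightest IL6 probe had 1.61 and 5.92 and did not pass that test (adjusted p 0.312).

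None of these 3 calls held without day 24 replicate 3, or without day 18 inter-site replicate 2 or 3, or without attachment-site replicate 3 of either day, and 18 probes were called without day 24 inter-site replicate 2. PLG, the plasmin precursor, SLC2A2, SLC7A3 and SCGN were called at attachment sites, all higher on day 24. At inter-sites PLG, SLC2A2 and SLC7A3 were above background on 1 day 24 array and SCGN on 2, and each on 0 day 18 arrays, so that no difference there is given. Their tests between site types did not pass. HSD11B2 had opposite signs, -1.43 at inter-sites and 2.01 at attachment sites (adjusted p of the difference 0.521).

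**Figure D4:**
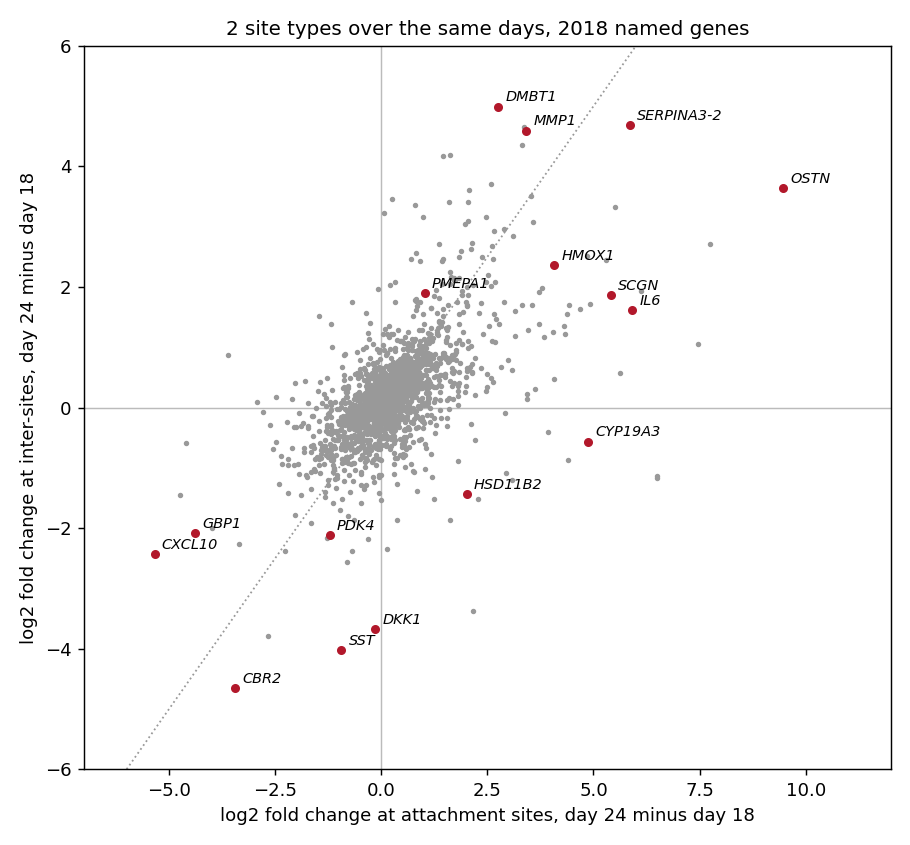
Difference between day 24 and day 18 for the 2018 named genes, each by its brightest probe, at inter-sites (vertical axis, log2) and at attachment sites (horizontal axis, log2); the dotted line marks equal differences and red points are named genes. IL6, at 1.61 and 5.92, lies below the line, as does CYP19A3, whose inter-site value rests on signal not above background.

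**Figure D5:**
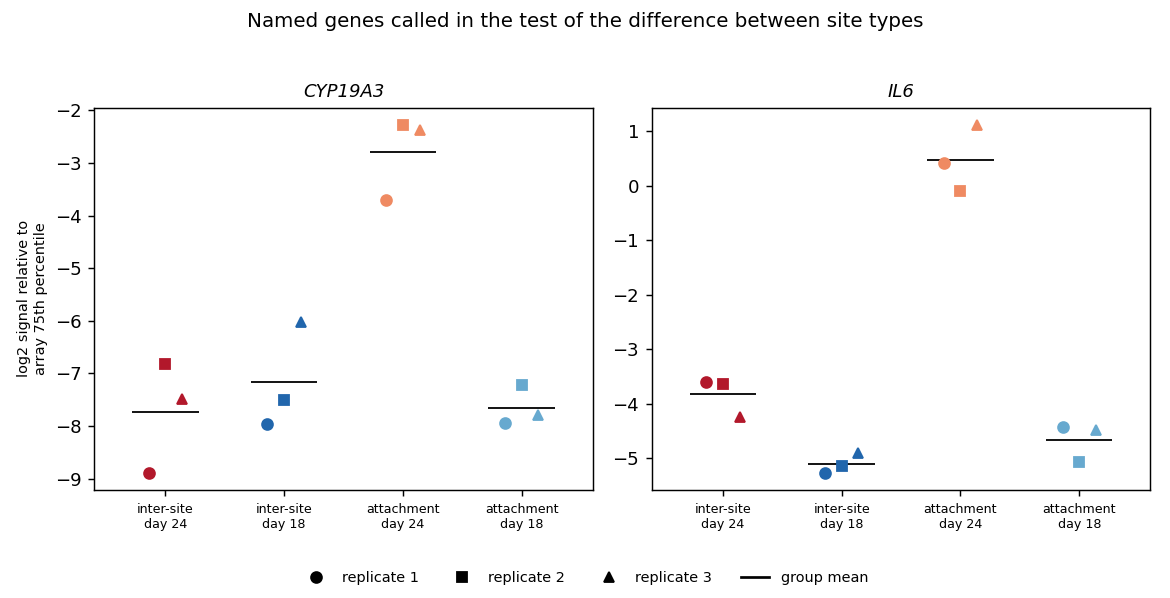
Levels of CYP19A3 and of the called IL6 probe in each array (vertical axis, log2 level above or below that array's percentile 75) at inter-sites and attachment sites of day 24 and day 18, with 1 marker shape per replicate number and a bar at the group mean. CYP19A3 lies between -3.70 and -2.28 at day 24 attachment sites and at or below -6.03 in the other 3 groups.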

How the data were processed

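Spot intensity was deposited as the output of Agilent Feature Extraction (10.7.3.1 per the file headers, 10.7 per the submitters' processing notes), with background subtracted array by array per the file headers. Their 0 or 1 flags for outlier spots and for signal well above background were used as deposited. Control and outlier spots were left out, repeated spots were averaged, and log2 of the processed intensity minus the 75th percentile of the array was analysed for 43603 probes. The share of probes above background ran from 66.3% to 77.1% on the 6 arrays. A probe was tested if some group of the 7 had it above background on each of its 3 arrays (30091 probes); 30 values were missing on the 6 arrays. The authors' deposited table of log2 values, an alternative only, had column medians of 5.85; the columns of day 24 inter-site replicates 2 and 3 followed each other's scanner files, and its direction and scale matched the other scanner files.

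The model, limma 3.58.1 on 21 arrays, had a mean for each of the 7 groups (R 4.3.3; 14 residual and 2.71 prior degrees of freedom), with Benjamini-Hochberg adjustment over all probes tested and a threshold of 0.05. The fit took the 21 arrays as independent, although both site types of a day were sampled from 3 sows. Libraries that matched at on-off probes had an estimated correlation of 0.52. The fit was also run on simulated data with independent noise between arrays. That run cannot show how shared sows or a library that stands apart affect the calls. Where no array of a day was above background, a bound is given: the mean of the brighter day against, per array, the higher of the probe's value and the lowest value among probes above background. Gene symbols came through RefSeq accessions (5461 probes, 2389 genes); the brightest tested probe stands for a gene, and a gene counts as called when any probe passed. The number of arrays limits the precision.

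The members and the 29 gene lists were chosen with earlier results of these data known. SPP1, SLPI, ACP5, RBP4, TIMP1 and HPSE were named after their values were seen. Otherwise named are the genes called, up to 15 a direction, filled up with the largest differences among genes whose days do not overlap, the same without day 24 replicate 3, the called or 3 most different members of each list, DKK1, FST and PGR, and the genes called between site types. A gene that this rule names is not reported here. Alternatives changed the scaling, background, filter, samples, weights and blocks. Replicate numbers did not pair the sows: correlations of the deviations of same-numbered libraries were 0.18, -0.09 and 0.11.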

Additional observations from a re-analysis of the deposited data

Results flagged for a closer look

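The results listed here concern the test of whether the day 24 against day 18 difference itself differed between inter-sites and attachment sites. CYP19A3 passed, with a fitted difference of differences of -5.43 (inter-sites minus attachment sites), whose size is not a measured one because no inter-site array was above background for it. Passing too was 1 of the 3 IL6 probes, with -3.86. A probe without a gene symbol passed as well, with -4.97 (SE 0.67, adjusted p 0.0233), above background on 1 inter-site array of each day. It had -5.72, -6.56 and -7.69 on day 24 and -5.50, -6.38 and -6.71 on day 18 at inter-sites, and -2.70, -2.56 and -1.62 on day 24 against -7.45, -6.10 and -6.87 on day 18 at attachment sites.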

How the results depend on the processing

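The direction of the called probes did not change in any alternative that tested them. Their days did not overlap, however, so leaving out a library could not turn it, and it is no separate support. The count of 43 probes between day 24 and day 18 (29 higher, 14 lower) depended on the processing. It was 26 with quantile normalization (15 higher, 11 lower), 25 with the percentile over detected probes (13 higher, 12 lower), 26 with the authors' deposited table (15 higher, 11 lower), 6 with normexp, 7 without a filter, 17 with a filter for all 6 arrays, 1 with only the 6 inter-site arrays, 209 with array weights, 1 with the slide as a block and 25 with it as a random block. Libraries that matched at on-off probes as a random block gave 15. With the replicate number as a block it was 19. The labels do not say whether the numbers pair sows. Leaving out each replicate in turn gave 6 to 70, and leaving out both libraries with low DKK1 (day 13 inter-site replicate 1 and day 24 replicate 3) gave 98. Leaving out day 24 replicate 3 and day 18 replicate 2, chosen after seeing the data, gave 34. The cause of these moves was not tested, except that fewer samples or more probes enter some of the fits.

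The 3 calls between site types became 0 with normexp, with the filter for all 6 arrays, with the slide as a block, without both libraries with low DKK1 and in the alternative added later; 1 with array weights and with the replicate block; and 6 with the on-off block. Leaving out 1 replicate gave 0 to 18, attachment sites, added later, included.

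Of single genes, DKK1 differed by 0.033, RBP4 by 0.082 and SULT1E1 by 1.78 without both libraries with low DKK1. In the alternative added later RBP4 differed by 0.11 and SULT1E1 by 1.51, and with normexp SULT1E1 by 0.13. Leaving out libraries turned the sign of several genes. CYCS by its brightest probe ran between -0.00611 and 0.68, CYP19A3 between -1.02 and 0.014 and DKK1 between -5.65 and 0.033. GATA3 ran between -0.32 and 1.18, PAG6 between -1.17 and 5.38 and RBP4 between -1.55 and 0.11. SLC7A3 ran between -0.30 and 2.68 and SULT1E1 between -2.93 and 1.78. PGR turned too, from 0.55 with all arrays to -0.019 without day 24 replicate 3. The signs of CYP19A3 have no meaning, since no inter-site array was above background for it. Signal near background also limits MMP20, SCGN, SLC2A2 and SLC7A3.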

Other observations

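Genes of the respiratory chain complexes and ATP synthase, taken by the start of their symbols after the values of CYCS were seen and without CYCS itself, had a difference above 0 in 21 of 22 tested genes, against 63.0% of all named genes. In 13 (59.1%) the days did not overlap upwards, against 17.7% of all named genes. Their median difference was 0.57, against 0.17 over all named genes, and 0.66 against 0.19 without day 24 replicate 3. Within the slides of replicates 1 and 2 the median was 0.58 and 0.74, against 0.11 and 0.35 over all named genes, and at attachment sites it was 0.34. By the brightest probe 0 of the 22 passed in limma; the ATP synthase subunits ATP5G1 and ATP5A1 differed by 0.96 (SE 0.22, adjusted p 0.0781) and 0.95 (SE 0.20, adjusted p 0.0639). Proteasome genes were also taken by the start of their symbols, but with PSME3, named above, kept in. They had a median of 0.21 over 13 tested genes, 9 of them above 0. In 6 (46.2%), PSME3 included, the days did not overlap upwards. Of 4 vacuolar ATPase genes taken by symbol, ATP6V1A included, 3 were above 0 and 1 did not overlap upwards (median 0.31).

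Day 24 replicate 3 also differed from its group mates in OVGP1, an oviductal glycoprotein outside the naming rule, where it lay 9.25 above the nearer of them.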
